A study of Mus musculus with 4 samples.

Results

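The neutrophil granule and maturation genes Lcn2, Ngp, Retnlg, Wfdc21, Ltf, Camp, Mmp8 and Mmp9 were followed across the leukocytes of the inflamed mouse gut muscle. They were chosen by name, and all 8 were found among the 16308 genes of each count table. The cells were leukocytes (CD45+) taken from the muscularis, the outer muscle layer of the small intestine, after surgery on the gut, and their transcripts had been counted cell by cell with droplet-based scRNA-seq. There were 4 libraries, 1 per group: WT C57BL/6J mice at 24 h and at 72 h post-injury, and CCR2 KO mice (Ccr2-/-; B6.129S4-Ccr2tm1Ifc/J) at the same times. All groups had surgery, and no library of unoperated mice was used here. All mice were 12 weeks old and female. Each library was pooled from several mice, so no value of a single mouse exists. CCR2 is the chemokine receptor with which monocytes leave the bone marrow, and the KO mice lack it in every cell type throughout life.

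Neutrophils make their granule proteins in the bone marrow, in waves that follow the stages of their maturation. Azurophil granule proteins such as myeloperoxidase come first, specific granule proteins such as lactoferrin, cathelicidin and lipocalin 2 next, and gelatinase granule proteins such as matrix metalloproteinase 9 last. Transcripts of the early waves are largely switched off before the mature cell enters blood and tissue, and transcription factors of the C/EBP family drive many of these genes.

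In these data Mmp9 was at nearly the same level in the neutrophils of all 4 libraries, whereas Lcn2, Retnlg, Wfdc21 and Ngp differed between them. Lcn2 was 9.88-fold, Retnlg 7.23-fold and Wfdc21 3.53-fold higher in WT than in CCR2 KO neutrophils at 24 h. At 72 h Ngp and Wfdc21 were more than 2-fold higher in CCR2 KO than in WT neutrophils, and Lcn2 and Retnlg less than 2-fold. Camp transcripts were close to the counting floor throughout. Ltf was higher in CCR2 KO at 24 h, on 6 UMIs in WT. Lcn2, Wfdc21 and Mmp8 were also found in a part of the monocyte/Mφ (macrophage) cells of WT mice at 24 h. Mmp8 was at a similar level in those of CCR2 KO mice at 24 h.

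The genes lie on 4 chromosomes of GRCm38. Ngp (ENSMUSG00000032484.8), Ltf (ENSMUSG00000032496.7), Camp (ENSMUSG00000038357.10) and Mmp8 (ENSMUSG00000005800.3) are on chromosome 9, Lcn2 (ENSMUSG00000026822.14) and Mmp9 (ENSMUSG00000017737.2) on chromosome 2, Wfdc21 (ENSMUSG00000051748.2) on chromosome 11 and Retnlg (ENSMUSG00000022651.6) on chromosome 16. Camp spans chr9:109847379-109849617, Ngp chr9:110419747-110423012 and Ltf chr9:111019271-111042767. These 3 are neighbours within 0.57 Mb from Camp to Ngp and 0.596 Mb from Ngp to Ltf. The targeted gene Ccr2 lies on the same chromosome, 13.1 Mb from Ltf, 13.7 Mb from Ngp and 14.3 Mb from Camp. The strain name gives a 129 origin of the KO allele, and whether sequence of that origin reaches these genes was not tested.

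The promoters below are those of the 3 genes with the widest range between libraries and of Ltf. Ltf was lowest in WT 24 h neutrophils, on 6 UMIs, where those 3 were highest. Each promoter holds the 250 bases before the transcription start in RefSeq (GRCm38.p6), written 5′ to 3′ on the strand of the gene. Capitals mark matches to the C/EBP core TTGCNNAA on either strand. The promoters come from chr2:32387740-32387989 (minus strand), chr9:110419558-110419807, chr16:48872358-48872607 and chr9:111019042-111019291 (plus strand). The gene spans above are from GENCODE M21, whose starts differ in part from those of RefSeq. By these spans the promoters of Ngp, Ltf and Camp run into the gene. That of Lcn2 lies wholly within its span (chr2:32384633-32388252).
Lcn2: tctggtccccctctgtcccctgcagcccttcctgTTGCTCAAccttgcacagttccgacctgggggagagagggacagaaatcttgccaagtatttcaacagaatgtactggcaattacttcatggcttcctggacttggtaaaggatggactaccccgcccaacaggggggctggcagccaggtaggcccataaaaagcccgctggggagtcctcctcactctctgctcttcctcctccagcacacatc
Ngp: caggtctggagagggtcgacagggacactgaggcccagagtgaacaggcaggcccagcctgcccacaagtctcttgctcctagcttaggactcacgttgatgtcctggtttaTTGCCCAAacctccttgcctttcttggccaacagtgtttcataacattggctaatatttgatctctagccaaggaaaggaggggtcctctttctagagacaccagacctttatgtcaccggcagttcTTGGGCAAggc
Retnlg: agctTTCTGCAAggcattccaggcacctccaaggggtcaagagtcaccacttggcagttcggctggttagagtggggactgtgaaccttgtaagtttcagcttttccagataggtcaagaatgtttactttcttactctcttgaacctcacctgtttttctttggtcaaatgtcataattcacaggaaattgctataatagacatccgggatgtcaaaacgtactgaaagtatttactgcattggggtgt
Ltf: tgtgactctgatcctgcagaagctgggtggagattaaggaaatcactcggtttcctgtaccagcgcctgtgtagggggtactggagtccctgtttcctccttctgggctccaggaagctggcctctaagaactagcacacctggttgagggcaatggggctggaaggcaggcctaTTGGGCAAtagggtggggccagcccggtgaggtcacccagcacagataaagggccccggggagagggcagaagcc
Promoters were matched for 6 of the 8 genes, and Mmp9 and Wfdc21 were not among them. A C/EBP match was found in 5 of the 6, at position -216 of Lcn2, -138 and -11 of Ngp, -246 of Retnlg, -75 of Ltf and -19 of Mmp8, and not in that of Camp. Of all 32851 promoters of this length in the table, 9.56% held one. The genes that differed most between libraries and Ltf thus shared this motif, and it did not separate them. The motifs were chosen after the sequences had been seen. The PU.1 core GAGGAA was matched in Lcn2 at -20, Ltf at -157 and Mmp8 at -219 (23.3% of all promoters). A loose NF-kB pattern was matched in Lcn2 at -102 and in Ltf at 3 overlapping positions (45.8% of all promoters), and TATAAA (12.4% of all promoters) in none of the 6. A match is a run of letters and not a shown binding site.

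The libraries held 1674 and 1774 cells at 24 h and 1315 and 1048 at 72 h (WT first), 5811 in all, and median UMIs per cell ranged from 3281.5 to 12859. Of 5807 different cell barcodes, 4 occurred in more than 1 library. Cells were assigned to the class whose markers had the highest mean log level, and the 8 genes were not among the markers. At 24 h the neutrophil gate held 314 WT cells (18.8% of the library) and 1346 CCR2 KO cells (75.9%); at 72 h it held 192 (14.6%) and 584 (55.7%). Only 14 of the 2436 neutrophils were within a score of 0.2 of another class. The neutrophil markers held in every library: Cxcr2 ranged from 779 to 1132 CPM (UMIs of the gene per 1e+06 UMIs of the class) in neutrophils and from 0.757 to 1.82 CPM in monocyte/Mφ cells. The eosinophil genes Prg2 and Il5ra were at 0 to 0.233 CPM in neutrophils, although Siglecf, which eosinophils and some tissue neutrophils carry, had a UMI in 7.64% of WT and 14.2% of CCR2 KO neutrophils at 24 h, and in 43.8% and 49.5% at 72 h. Ccr3 and Ear6, also eosinophil markers, were at 1.69 to 3.97 and at 0 to 2.10 CPM in neutrophils. No cell was assigned to the eosinophil class. The authors named a leukocyte cluster with Siglec-f and Cxcr4 eosinophils. Below, rows of 4 values follow the same order, WT before CCR2 KO and 24 h before 72 h. Ccr2 was at 756 and 1026 CPM in WT and at 93.6 and 80.5 CPM in CCR2 KO monocyte/Mφ cells at 24 h and 72 h.

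Median UMIs of the neutrophils were 2092, 2949.5, 2449.5 and 3427.5. The neutrophil gates also differed in the level of monocyte/Mφ markers. The 11 monocyte/Mφ markers summed to 3710 CPM in WT 24 h neutrophils, 1208 in CCR2 KO 24 h, 2723 in WT 72 h and 1681 in CCR2 KO 72 h, that is 18.8%, 6.76%, 9.22% and 15.2% of their sum in the monocyte/Mφ cells of that library. At least 10 of the 11 markers had a UMI in neutrophils of each library, and Lyz2, which neutrophils also make, was the highest of them. Lyz2 made up 2824, 775, 1902 and 1247 CPM of these sums, so the shares do not measure monocyte/Mφ RNA alone. The part of such RNA in the neutrophil levels of the 8 genes was not tested. Each group is 1 library, so no test was possible. Every interval given is a 95% interval of counting error alone, which leaves out the differences between cells, mice and libraries, and UMIs of 1 cell are not independent of each other.

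Among named classes with at least 20 cells, the neutrophil gate had the highest level of the gene in 31 of the 32 pairs of gene and library, as the plot of levels by class shows. The exception was Camp in WT 72 h, which had no UMI in any class. In the other libraries Camp rested on 2, 3 and 1 UMIs in neutrophils. Under other choices of processing the count ranged from 26 to 31. Among the smaller gates, Lcn2 and Camp were higher in the 2 cells of CCR2 KO 72 h with a non-immune score, and Ltf in the 9 cells of WT 24 h without a class, where 1 cell held both of its 2 UMIs. Ngp was the most restricted gene, with all its 115, 12, 2 and 69 UMIs in neutrophils. Retnlg followed, with 98.4% to 99.8% of its UMIs in neutrophils. T, NK, innate lymphoid and B cells, which do not make these proteins, served as a measure of free RNA. In the 422 such cells, with a median of 6809 UMIs, Lcn2, Ngp and Camp had no UMI, and the highest level of any of the genes was 10.6 CPM, for Mmp9 in CCR2 KO 24 h.

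**Figure D1:**
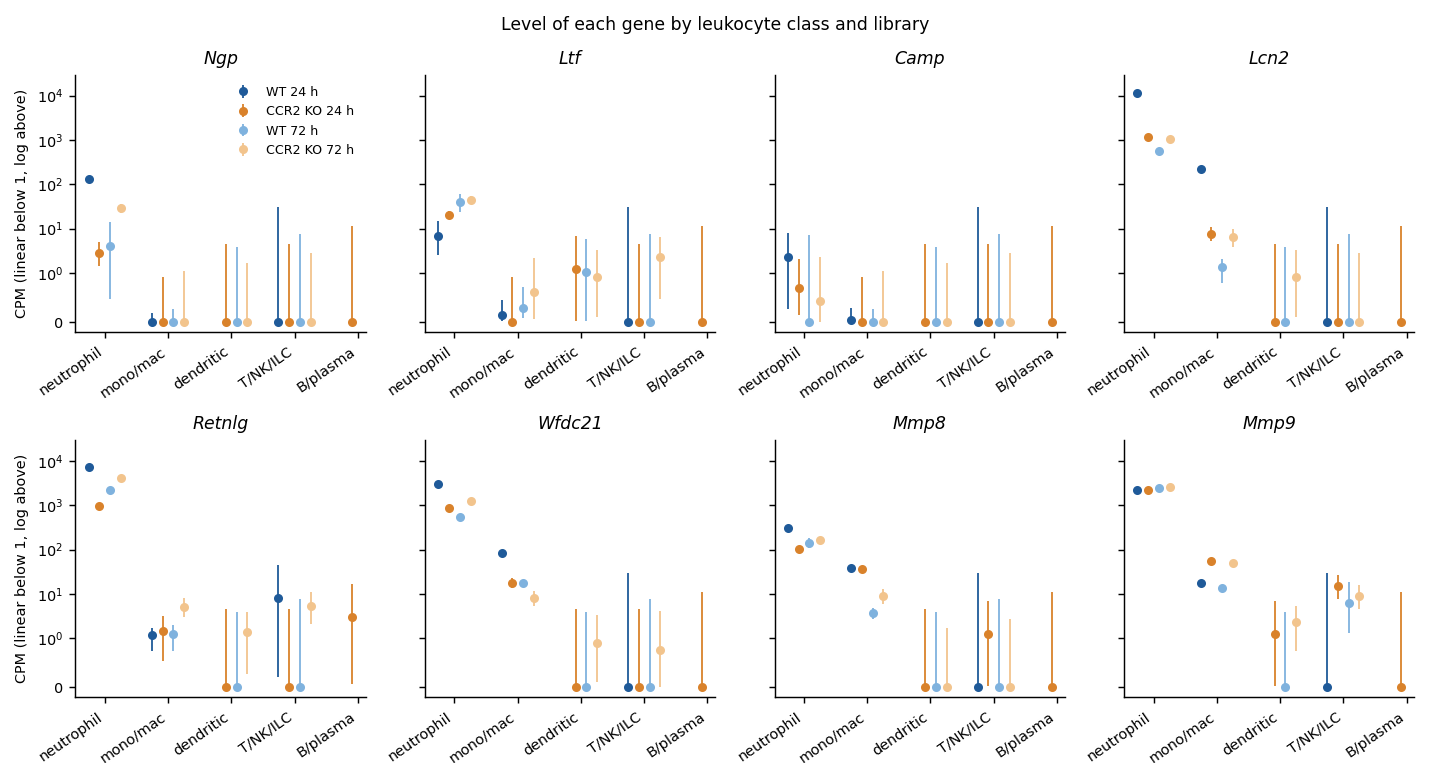
Level of each of the 8 genes (CPM, linear below 1 and logarithmic above) by leukocyte class, with 1 point per library and bars for the 95% Poisson interval; classes with fewer than 20 cells in a library are left out. Neutrophils sit highest for every gene except Camp in WT 72 h, Mmp9 is level at 2191 to 2631 CPM across the libraries, and Lcn2, Wfdc21 and Mmp8 reach 227, 82.1 and 37.7 CPM in monocyte/Mφ cells of WT 24 h.

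Among the specific granule genes, Ngp, a cathelicidin-related granule protein of immature neutrophils, was at 129 CPM (107 to 155) in WT 24 h, 2.80 (1.45 to 4.89) in CCR2 KO 24 h, 3.95 (0.478 to 14.3) in WT 72 h and 29.1 (22.6 to 36.8) in CCR2 KO 72 h. WT at 24 h was the highest library and CCR2 KO at 72 h the next, with intervals that did not overlap each other or those of the remaining 2 libraries, which overlapped. The UMIs came from few cells: 28 of 314, 10 of 1346, 2 of 192 and 19 of 584 neutrophils had any, and the richest cell held 23, 3, 1 and 25 of the UMIs.

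Ltf encodes lactoferrin, an iron-binding antimicrobial protein. It was at 6.74 CPM (2.48 to 14.7) in WT 24 h, 20.5 (16.5 to 25.3) in CCR2 KO 24 h, 39.5 (24.1 to 61.0) in WT 72 h and 44.7 (36.6 to 54.0) in CCR2 KO 72 h, resting on 6, 88, 20 and 106 UMIs. The level was thus lowest where Ngp was highest. The interval of WT 72 h overlapped those of both CCR2 KO libraries. Camp encodes the cathelicidin precursor, and it had 2, 3, 0 and 1 UMIs in neutrophils, at most 2.25 CPM (0.272 to 8.12). These counts are at or under the floor of 3, so that no difference in Camp was detectable at this depth.

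With cells thinned to 1000 UMIs apiece, Camp, Ngp or Ltf was found in 5.42% of neutrophils (3.13 to 8.66, exact binomial interval, 295 cells) in WT 24 h, 2.41% (1.66 to 3.39, 1327 cells) in CCR2 KO 24 h, 4.32% (1.89 to 8.34, 185 cells) in WT 72 h and 5.76% (3.97 to 8.03, 556 cells) in CCR2 KO 72 h. Of these thinned cells, Ngp was found in 12, 3, 1 and 6 and Ltf in 4, 28, 7 and 26. The joint share thus rested mostly on Ngp in WT 24 h and mostly on Ltf in each other library. Without thinning the joint shares were 10.8%, 5.65%, 5.73% and 12.2%. The interval of CCR2 KO 24 h lay below that of CCR2 KO 72 h and overlapped those of both WT libraries, and without thinning its share was close to that of WT 72 h. Without the 5 cells richest in each gene the thinned shares were 2.64%, 2.09%, 1.29% and 4.93%. This left out 30, 34, 30 and 29 neutrophils, chosen by the genes themselves and a larger part of the smaller gates. In lymphocytes the thinned share was 0 of 26, 0 of 139, 0 of 88 and 0 of 167 cells, where 3 cells would be 11.5%, 2.16%, 3.41% and 1.796%. Without thinning it was 0 in 3 libraries and 1.198% in CCR2 KO 72 h, from 3 Ltf UMIs. The depth of lymphocytes, with medians of 4817 to 7421 UMIs, was above that of neutrophils.

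Lcn2 encodes lipocalin 2, which binds the siderophores with which bacteria take up iron. In neutrophils it was at 11681 CPM (11457 to 11908) in WT 24 h, 1182 (1150 to 1215) in CCR2 KO 24 h, 557 (494 to 626) in WT 72 h and 1027 (987 to 1069) in CCR2 KO 72 h. The WT 24 h library stood far above the others, and no 2 intervals overlapped. The difference was spread over the cells: an Lcn2 UMI was found in 246 of 314, 690 of 1346, 48 of 192 and 164 of 584 neutrophils, and the median cell held 42.1 Lcn2 UMIs per 10000 UMIs in WT 24 h, 2.44 in CCR2 KO 24 h and 0 in both 72 h libraries. At least 100 Lcn2 UMIs per 10000 were reached by 105 of 314 WT cells and by 8 of 1346 CCR2 KO cells at 24 h. After thinning, an Lcn2 UMI was seen in 76.3% of WT (71.0 to 81.0) and 37.5% of CCR2 KO cells (34.8 to 40.1).

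The genes of small secreted proteins shared this pattern in part. Retnlg, a resistin-like cysteine-rich protein, was at 7134 CPM (6959 to 7312) in WT 24 h, 987 (957 to 1017) in CCR2 KO 24 h, 2163 (2036 to 2295) in WT 72 h and 4041 (3960 to 4122) in CCR2 KO 72 h. The order of the libraries differed from that of Lcn2, since both 72 h libraries lay above CCR2 KO 24 h. Its UMIs were concentrated: 56.1%, 23.6%, 30.2% and 27.2% of neutrophils had one, and the 14, 19, 6 and 15 richest cells held at least as many Retnlg UMIs as all the others together. The richest cell of CCR2 KO 72 h held 577. Wfdc21, a small protein of the whey acidic protein family, was at 3085 CPM (2970 to 3202), 874 (846 to 902), 543 (481 to 611) and 1279 (1234 to 1326) in the same order. WT 24 h was again the highest, and no 2 intervals overlapped.

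Of the matrix metalloproteinase genes, Mmp8 differed between the libraries and Mmp9 hardly did. Mmp8, neutrophil collagenase, was at 307 CPM (272 to 346) in WT 24 h, 102 (93.1 to 113) in CCR2 KO 24 h, 142 (111 to 179) in WT 72 h and 163 (148 to 181) in CCR2 KO 72 h, and the interval of WT 72 h overlapped those of both CCR2 KO libraries. Mmp9, gelatinase B, was at 2251 CPM (2153 to 2351), 2191 (2147 to 2236), 2451 (2316 to 2591) and 2631 (2567 to 2698). Mmp9 was also the one gene found in nearly every neutrophil, in 93.0%, 90.3%, 97.4% and 94.7% of them, and its median was 24.5, 19.04, 21.4 and 25.5 UMIs per 10000. The plot of per-cell levels sets this even distribution beside those of Lcn2 and Retnlg.

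**Figure D2:**
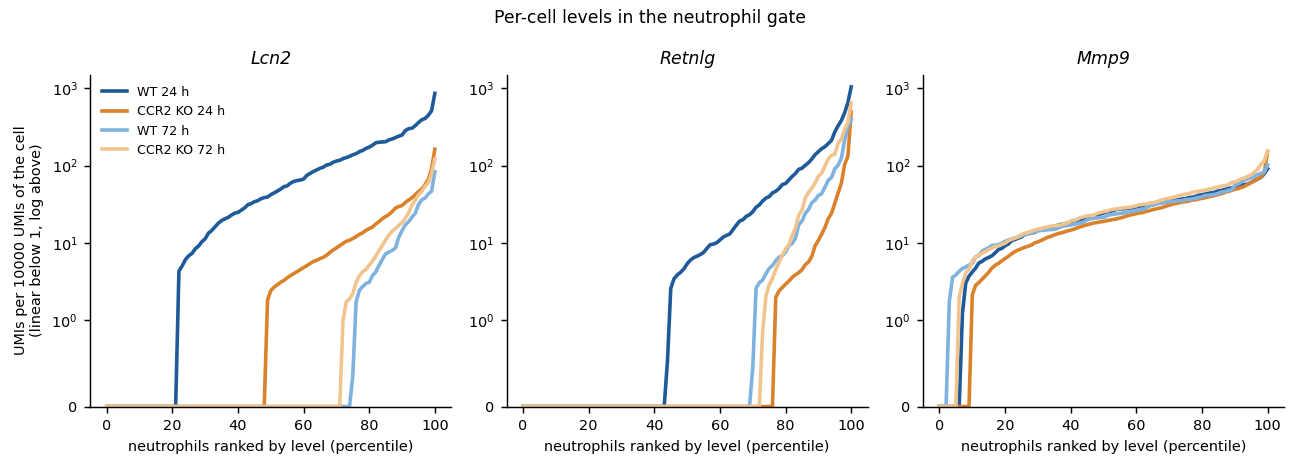
Neutrophils of each library ranked from the lowest to the highest level of Lcn2, Retnlg and Mmp9 (percentile of cells, x axis) against UMIs of the gene per 10000 UMIs of the cell (y axis, linear below 1 and logarithmic above). The Mmp9 curves lie close together with medians of 19.04 to 25.5, while the Lcn2 curve of WT 24 h lies above the others wherever it leaves 0 (median 42.1) and the median cell of every library but WT 24 h has 0 Retnlg.

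How CCR2 deficiency and time relate to these genes was then read as ratios of CPM in neutrophils. With no replicates, a gene counted as tested when it reached 20 CPM in at least 1 of the 2 libraries and called when the ratio was at least 2-fold. Of the 8 genes 7 were tested in each comparison, all but Camp. Comparisons that share a library are not independent of each other.

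At 24 h, 5 of the 7 genes were lower in CCR2 KO than in WT neutrophils and 1 was higher, where 286 of the 4663 genes tested were called lower and 229 higher, that is 4.91% higher and 11% either way. Log2 ratios were -5.53 for Ngp (-6.52 to -4.67), -3.30 for Lcn2 (-3.35 to -3.26), -2.85 for Retnlg (-2.91 to -2.80), -1.82 for Wfdc21 (-1.89 to -1.75) and -1.58 for Mmp8 (-1.80 to -1.36). Ltf was 3.05-fold higher in CCR2 KO, a log2 ratio of 1.61 (0.43 to 3.09) that rests on 6 UMIs in WT. It was at 0.74 (-0.77 to 2.70) with thinned cells and at 0.97 (-0.07 to 2.22) with neutrophils taken from Leiden clusters, groups of cells with like transcripts made without the 8 genes, under 2-fold both times. Mmp9 was at -0.04 (-0.11 to 0.03). The median over the 7 genes was -1.82, beside 0.01 over all genes tested.

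At 72 h, 2 of the 7 were higher in CCR2 KO and 0 lower, where 3.17% of 5516 genes were called higher and 1.9% lower. Ngp was 7.36-fold higher, with a log2 ratio of 2.88 (0.97 to 5.95) that rests on 2 UMIs in WT and on 69 in CCR2 KO, of which 1 cell held 25. Wfdc21 was 2.36-fold higher (1.24; 1.06 to 1.42). Retnlg, at 0.90 (0.81 to 0.99), and Lcn2, at 0.88 (0.70 to 1.07), did not reach 2-fold. Mmp8 (0.20; -0.16 to 0.58), Ltf (0.18; -0.52 to 0.95) and Mmp9 (0.10; 0.01 to 0.19) were close to no difference. The median was 0.88, beside -0.02 over all genes. These calls depended on the weight of single cells: when every cell was thinned to 1000 UMIs, Wfdc21 was at 0.87 and 0 genes were called, and with the mean of the per-cell CPM 1 was called. Without the 5 cells richest in each gene, and likewise without the cells that had a Siglecf UMI, 4 genes were called higher. Leaving out the richest cells took 30 of 192 WT and 29 of 584 CCR2 KO neutrophils. WT thus lost the larger part, which by itself raises the ratio.

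Between 24 h and 72 h in WT, 5 of the 7 genes were lower at 72 h and 1 was higher, where 5.13% of 5318 genes were called lower and 20.1% higher. Lcn2 was 21.0-fold lower at 72 h (log2 ratio -4.39; -4.57 to -4.22), Ngp 32.7-fold (-5.03; -8.10 to -3.15), Wfdc21 5.68-fold (-2.51; -2.69 to -2.33), Retnlg 3.30-fold (-1.72; -1.82 to -1.63) and Mmp8 2.16-fold (-1.11; -1.51 to -0.73). Mmp8 was no longer called without the cells that had a Siglecf UMI (-0.53; -0.94 to -0.13). Ltf was 5.86-fold higher (2.55; 1.18 to 4.16), again on 6 UMIs at 24 h. The median of all genes tested was itself shifted by 0.42, beside -1.72 for the 7 genes. Relative to that shift Mmp9 was at -0.30, and as measured at 0.12 (0.02 to 0.23), so that its direction depended on the scaling.

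In CCR2 KO mice 3 of the 7 genes were higher at 72 h and 0 lower, where 22.3% of 5348 genes were called higher and 3.89% lower. Ngp was 10.4-fold higher (3.38; 2.48 to 4.40), Retnlg 4.10-fold (2.03; 1.98 to 2.09) and Ltf 2.17-fold (1.12; 0.70 to 1.54). Mmp8 was at 0.67 (0.47 to 0.87), Wfdc21 at 0.55 (0.48 to 0.62), Mmp9 at 0.26 (0.22 to 0.31) and Lcn2 at -0.20 (-0.27 to -0.13). The median was 0.67, beside 0.39 over all genes, so that a count of 3 of 7 stands against a background in which 22.3% of genes were called the same way. Without the 5 cells richest in each gene, 1 gene was called. When neutrophils with a Siglecf UMI were left out, Lcn2 was at 0.45 (0.38 to 0.53), the other direction, Ltf at 0.58 (-0.06 to 1.2001) was not called, and Mmp8 at 1.40 (1.19 to 1.61) and Wfdc21 at 1.17 (1.09 to 1.24) were. Relative to the median of all genes Ltf was at 0.73, under 2-fold, and Mmp9 at -0.12.

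**Figure D3:**
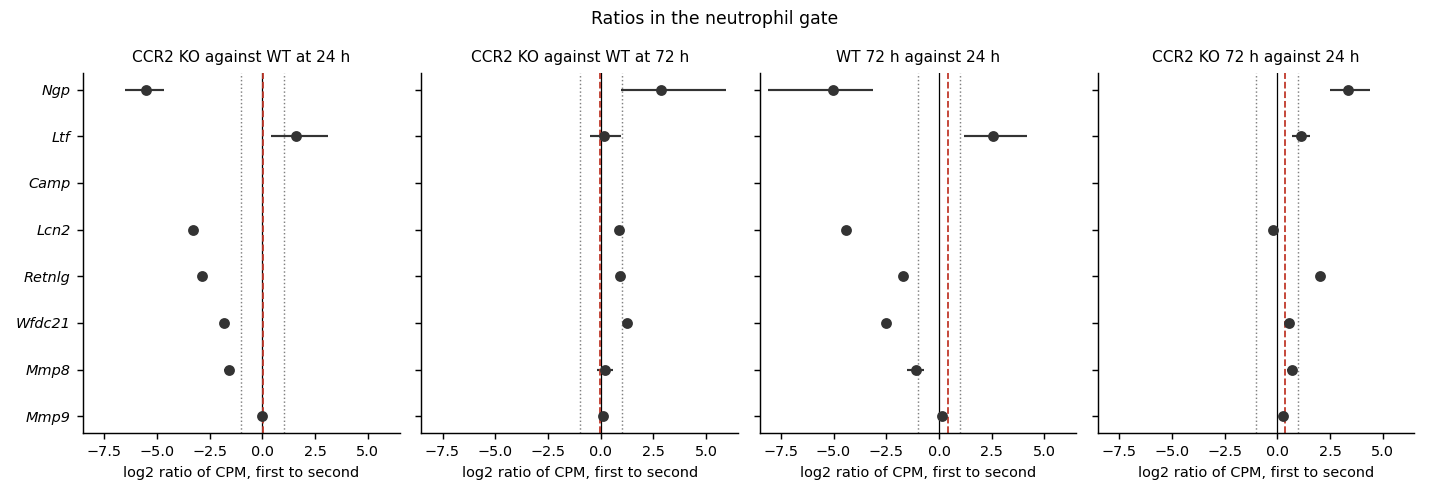
Log2 ratio of CPM in neutrophils (x axis) for each gene tested in the 4 comparisons, with bars for the 95% counting interval; dotted lines mark 2-fold, the dashed line the median of all genes tested. In CCR2 KO against WT at 24 h, 5 genes lie left of -1 and Ltf right of 1; at 72 h no gene lies left of 0.

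Neutrophils were not uniform within a library. They were grouped by the Retnlg UMIs left after thinning to 1000 UMIs, and the levels of the other genes were read from the full counts of each group, as drawn in the plot of Retnlg groups. Cells with 5 or more Retnlg UMIs made up 22.7% of neutrophils in WT 24 h (67 cells), 3.84% in CCR2 KO 24 h (51), 9.19% in WT 72 h (17) and 12.9% in CCR2 KO 72 h (72). They were deeper, with median UMIs of 3360, 5045, 3949 and 6652.5, than cells with 0, with 1836, 2889.5, 2389 and 3162.5. The part of this difference in the levels was not tested.

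Mmp8, Wfdc21 and Lcn2 were higher in these Retnlg-rich cells than in cells with 0 Retnlg UMIs in each library, and Ngp in all but WT 72 h, whose 2 Ngp UMIs lay in cells with 0. Ngp was at 382 against 2.68 CPM in WT 24 h and at 127 against 1.29 CPM in CCR2 KO 72 h. Mmp8 reached nearly the same level in the Retnlg-rich cells of all libraries, 629 (537 to 732), 646 (551 to 751), 816 (603 to 1078) and 628 CPM (560 to 702), and the difference between WT and CCR2 KO seen over all neutrophils at 24 h was not there (log2 ratio 0.04; -0.28 to 0.36). Mmp9 was at 2587, 2273, 1847 and 1672 CPM in Retnlg-rich cells and at 2092, 2177, 2722 and 2970 CPM in those with 0, that is lower in the Retnlg-rich cells at 72 h (log2 ratio -0.56 in WT, with an interval of -0.86 to -0.27, and -0.83 for CCR2 KO, with one of -0.94 to -0.72). At 24 h the log2 ratio was 0.31 in WT (0.16 to 0.46) and 0.06 for CCR2 KO (-0.06 to 0.18).

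Lcn2 in WT at 24 h was at 7949 CPM (7666 to 8240) even in cells with 0 Retnlg UMIs, against 860 (829 to 891) in the same cells of CCR2 KO mice, 180 (138 to 230) in WT 72 h and 143 (124 to 163) in CCR2 KO 72 h. The log2 ratio of CCR2 KO to WT at 24 h was -3.21 (-3.28 to -3.14) in cells with 0, -2.70 (-2.81 to -2.60) in cells with 1 to 4 and -2.02 (-2.12 to -1.92) in cells with 5 or more Retnlg UMIs. The gap in Lcn2 was therefore present in each group, as was a smaller one in Wfdc21. For Mmp8 the same ratios were -0.85 (-1.33 to -0.34), -1.33 (-1.89 to -0.77) and the 0.04 given above, and for Wfdc21 they were -1.20 (-1.35 to -1.06), -1.06 (-1.20 to -0.92) and -0.70 (-0.82 to -0.57).

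Ltf was at 8.03, 23.2, 57.2 and 64.5 CPM in cells with 0 Retnlg UMIs, and 1 UMI in WT 24 h was all that was found in the Retnlg-rich cells. In CCR2 KO 72 h, 0 UMIs were found there, which allows 7.57 CPM at the upper bound of the interval, against 64.5 (52.5 to 78.5) in cells with 0. In the 17 Retnlg-rich cells of WT 72 h, 0 UMIs allow 61.4 CPM, so that no difference was detectable there, and in WT 24 h the 1 UMI, 3.74 CPM (0.0948 to 20.9), against 8.03 (1.66 to 23.5) left none detectable either. Ltf was higher in neutrophils with a Siglecf UMI than in those without, at 64.5 against 27.0 CPM in CCR2 KO 72 h (log2 ratio 1.25; 0.65 to 1.89) and 34.9 against 18.1 CPM in CCR2 KO 24 h (0.95; 0.19 to 1.67), and at 46.8 against 34.2 CPM in WT 72 h, where the interval held 0 (0.45; -0.97 to 1.87). None of the 12 thinned WT 24 h cells with an Ngp UMI had an Ltf UMI, but only 1.41% of the other cells had one.

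**Figure D4:**
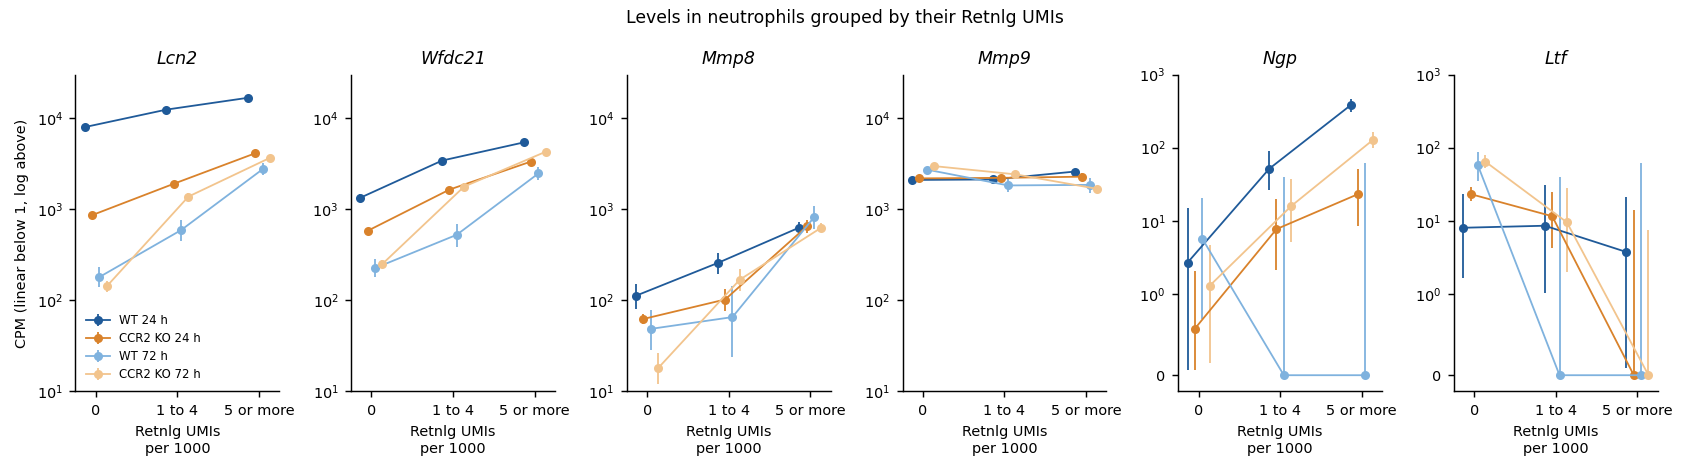
Level of 6 genes (CPM, linear below 1 and logarithmic above) in neutrophils with 0, 1 to 4 and 5 or more Retnlg UMIs among 1000, 1 line per library, with 95% Poisson intervals. Lcn2 of WT 24 h lies above the other libraries in each group (7949 CPM at 0), Mmp8 meets at 628 to 816 CPM in the last group, and Ltf falls to between 0 and 3.74 CPM there.

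Other genes sorted with these groups. Ly6g, which encodes the surface antigen by which mouse neutrophils are sorted, was at 191, 464, 366 and 542 CPM in Retnlg-rich cells and at 5.36, 18.9, 11.4 and 11.6 CPM in those with 0. S100a8, a calcium-binding alarmin subunit, was at 72245 to 122940 CPM in the former and 12222 to 18786 in the latter. Siglecf was at 486 and 419 CPM in the cells with 0 of WT 72 h and CCR2 KO 72 h and at 66.6 and 16.4 CPM in the Retnlg-rich cells. The chemokine receptor Cxcr4 was at 712, 998, 1029 and 859 CPM in the cells with 0 and at 172, 178, 816 and 236 CPM in the Retnlg-rich ones. In neutrophils with a Siglecf UMI, Retnlg itself was lower than in those without, at 602 against 7093 CPM in CCR2 KO 72 h and 805 against 3154 CPM in WT 72 h, while Mmp9 was higher there, at 3136 against 2184 and 2868 against 2146 CPM. At 24 h Mmp9 was at 2175 against 2194 CPM in CCR2 KO, where the interval of the log2 ratio held 0 (-0.01; -0.10 to 0.07), and at 2670 against 2223 CPM in WT (0.26; 0.01 to 0.51).

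Detection of the genes in the same cell followed this order. In WT 24 h all 12 thinned cells with an Ngp UMI also had Retnlg, Lcn2, Wfdc21 and Mmp9 UMIs, where Retnlg was found in 44.2% of cells without Ngp. Of the cells with Retnlg, 86.9% had Wfdc21, against 36.1% of those without. In CCR2 KO 72 h these shares were 79.2% and 8.92%, and for Mmp8 26.2% and 1.64%. Mmp9 detection differed little, at 79.2% and 83.8%. The same cells hold the depth and the RNA of both genes, so these shares describe the cells and are not independent measurements.

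Granule genes outside the 8 were read in the same neutrophils. The azurophil genes Mpo and Ctsg had no UMI in any library, Elane had 1, 0, 0 and 1, and Fcnb, a ficolin of immature neutrophils, had none. Ctsc, which encodes the protease that activates the serine proteases of this granule, was at 236, 127, 144 and 191 CPM, and Prtn3, proteinase 3, at 19.1, 15.2, 33.6 and 35.4 CPM. Among the 11 other specific granule genes, 9 were tested at 24 h, and 4 were lower in CCR2 KO and 0 higher: Chil3, a chitinase-like protein, by a log2 ratio of -3.52 (-3.65 to -3.39), Lyz2 (lysozyme) by -1.87 (-1.94 to -1.79), Cybb, a subunit of the NADPH oxidase, by -1.22 (-1.44 to -1.004), and Hp (haptoglobin) by -1.20 (-1.26 to -1.13). Monocytes and Mφs also transcribe these genes, and their markers summed to more in WT 24 h than in CCR2 KO 24 h neutrophils, as given above. Lyz2 is itself 1 of those markers and most of the sum, so the sum is no separate measure for it. C1qa, another marker, was at 52.8 CPM in WT 24 h and 3.27 CPM in CCR2 KO 24 h neutrophils. The part of monocytes and Mφs in these 4 ratios was not tested. Reads of Chil3 may also be shared with its near-identical copies, so its level is uncertain. At 72 h only Ly6g of this list was called, higher in CCR2 KO with 145 against 53.3 CPM (1.44; 0.88 to 2.07).

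Of the 10 other genes of gelatinase granules and secretory vesicles, 7 were tested and 0 called between CCR2 KO and WT at either time. Itgam, the CD11b integrin chain, was at 824, 711, 436 and 529 CPM, and Fpr1, the formyl peptide receptor, at 527, 264, 138 and 222 CPM. Of the 8 regulators of granule genes 5 were tested. Cebpb was at 5478, 6329, 5751 and 4358 CPM, Spi1 (PU.1) at 1115, 940, 926 and 927 CPM, and Cebpe, the factor of the specific granule stage, at 21.4, 25.7, 19.7 and 32.9 CPM. Runx1, a transcription factor of blood cells, was at 85.4, 192, 182 and 191 CPM, lowest in WT 24 h. It was the 1 gene called between CCR2 KO and WT at 24 h (1.17; 0.83 to 1.53) and also the 1 called over time in WT (1.09; 0.63 to 1.55), and 0 were called at 72 h.

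Among the protease inhibitors and partners, 9 of the 10 listed genes were in the tables. Of 5 tested at 24 h, 3 were lower in CCR2 KO, the stefins Stfa1, Stfa2 and BC100530, which inhibit cysteine cathepsins. Stfa2 was at 56.2 CPM in WT and 2.10 CPM in CCR2 KO mice at 24 h and at 23.7 and 67.8 CPM at 72 h, and of 6 tested at 72 h, 3 were higher in CCR2 KO, Stfa2, BC100530 and Stfa3, the last with an interval that held 0 (1.28; -0.02 to 2.96). Stefin genes are near-identical copies, so reads may have been split between them and each level is uncertain. Slpi, an inhibitor of neutrophil elastase, was at 2124, 1745, 2186 and 1663 CPM. Timp1 was at 6.74, 1.17, 0 and 0.421 CPM. Slc22a17, a receptor of lipocalin 2, had no UMI in neutrophils.

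In the list of 13 genes of late, tissue neutrophils, all were tested and the median log2 ratio of CCR2 KO over WT was 0.63 at 24 h, with 1 called higher (Hcar2, a receptor for ketone bodies, 1.25; 1.12 to 1.39), and -0.33 at 72 h, with 0 called. Il1b was at 17067, 18817, 19084 and 13656 CPM. In the list of 8 genes of Siglecf-positive neutrophils, 4 were higher in CCR2 KO at 24 h, Ffar2 (2.71), Gdf15 (1.58), Xbp1 (888 against 315 CPM) and Cd63 (1.06), and 0 were called at 72 h, where 7 were tested. The log2 ratio of Siglecf itself at 72 h over 24 h was 3.39 in WT neutrophils (2.84 to 3.99) and 2.26 in CCR2 KO neutrophils (2.05 to 2.47). Of 8 proliferation genes 1, Tuba1b, was tested, lower in CCR2 KO at 24 h (-1.15; -1.58 to -0.71) and not called at 72 h, and Mki67 was at 4.63 to 5.92 CPM.

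Outside neutrophils, monocyte/Mφ cells of WT mice at 24 h held 30.2% of all Lcn2 UMIs of that library, 37.2% of those of Wfdc21 and 73.3% of those of Mmp8. In WT 72 h they held 6.31%, 47.7% and 42.4% of these, and in CCR2 KO 24 h 0.608%, 1.89% and 25.2%. Such shares also follow the size of the gates. In WT 24 h the monocyte/Mφ gate held 1.98e+07 UMIs of all genes and the neutrophil gate 889568. Lcn2 was at 227 CPM (220 to 233) in the 1309 cells, with a UMI in 285 of them, against 7.67 (5.21 to 10.9) in CCR2 KO 24 h, 1.33 (0.803 to 2.08) in WT 72 h and 6.35 (3.93 to 9.71) in CCR2 KO 72 h. Wfdc21 was at 82.1, 17.8, 17.8 and 8.17 CPM and Mmp8 at 37.7, 36.6, 3.72 and 8.78 CPM in the same order. Mmp9 was the exception, with 18.01, 54.5, 13.8 and 50.8 CPM, higher in both CCR2 KO libraries. In CCR2 KO 24 h 1 cell held 72 of the 148 Mmp8 UMIs and 1 cell 76 of the 220 Mmp9 UMIs. Retnlg, at 1.16 to 5.14 CPM, lay within the range of the lymphocytes, 0 to 5.49 CPM.

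Relative to S100a8, Retnlg, Lcn2, Wfdc21 and Mmp8 stood at other levels in monocyte/Mφ cells of WT 24 h than in neutrophils, and Mmp9 at a similar one. In WT 24 h there were 185.7 Retnlg and 304 Lcn2 UMIs per 1000 S100a8 UMIs in neutrophils, and 3.45 Retnlg and 673 Lcn2 UMIs per 1000 S100a8 UMIs in monocyte/Mφ cells. On that scale Mmp8 was at 7.99 in neutrophils and 112 in monocyte/Mφ cells, Wfdc21 at 80.3 and 244, and Mmp9 at 58.6 and 53.5. Neutrophils themselves differed in S100a8, as given above. The source of these UMIs, neutrophil RNA and doublets among them, was not tested. In 115 of the 1005 monocyte/Mφ cells of WT 24 h with at most 1 S100a8 UMI, Lcn2 was found. The 1005 cells held 721 of the 4492 Lcn2 UMIs of the gate, so most of these UMIs lay in cells with more S100a8. They also held 263 of its 748 Mmp8 UMIs. In CCR2 KO 24 h, 127 of the 148 Mmp8 UMIs of monocyte/Mφ cells lay in cells with at most 1 S100a8 UMI, which were 210 of the 231 cells.

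At least 5 Lcn2 UMIs per 10000 were held by 92 of the 1309 monocyte/Mφ cells of WT 24 h (7.03%; 5.70 to 8.55), by 4 of 231 in CCR2 KO 24 h, by 0 of 956 in WT 72 h (3 cells would be 0.314%), and by 1 of 178 in CCR2 KO 72 h. Of the 92 cells, 5 were near another class. They carried Mφ genes, with Adgre1 (F4/80) at 449 CPM against 424 in the other cells, Csf1r at 355 against 435 and C1qa at 702 against 1581, and their depth was 16548 against 14502 median UMIs. The cells were chosen for Lcn2, and the following values describe them. Wfdc21 was at 418 CPM against 54.3 in the rest, Mmp8 at 194 against 24.7, Mmp9 at 23.1 against 17.6, and Retnlg at 3.29 against 0.983 CPM. The acute phase gene Saa3 was at 22574 against 1781 CPM, Cxcl13, a B cell chemokine, at 3386 against 46.4 and Marco, a scavenger receptor, at 352 against 2.35 CPM. Prg4 and Alox15, known from macrophages of the peritoneal cavity, were at 429 against 4.43 and at 208 against 6.06 CPM, and the part of such cells in these values was not tested. Cxcl13, Marco, Prg4 and Alox15 had no UMI in neutrophils of this library. Neutrophil markers were also higher in the 92 cells than in the rest of the gate. S100a8 was at 2433 against 163 CPM, S100a9 at 487 against 14.2, Cxcr2 at 6.59 against 0.273 and Csf3r at 86.3 against 65.5. In neutrophils S100a8 was at 38425 CPM and Cxcr2 at 1072. The part of neutrophil RNA or of doublets in the values of these cells was not tested.

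**Figure D5:**
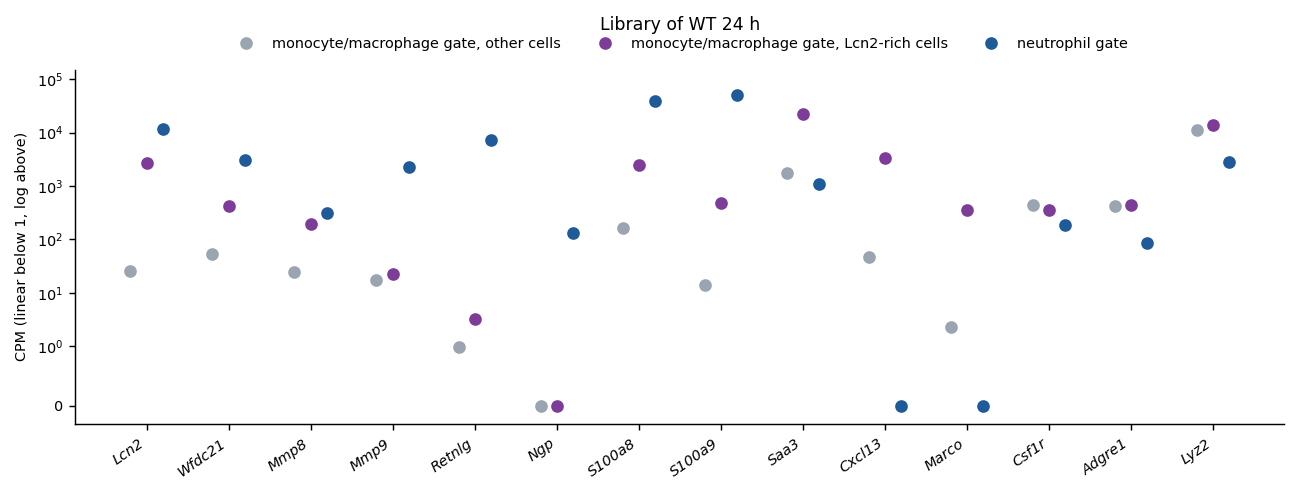
Levels (CPM, linear below 1 and logarithmic above) in WT 24 h of 14 genes in the 92 Lcn2-rich cells of the monocyte/Mφ gate, the other cells of that gate and the neutrophil gate. The Lcn2-rich cells lie near neutrophils for Mmp8 (194 and 307 CPM), near the other monocyte/Mφ cells for Mmp9, Csf1r and Adgre1, and hold Cxcl13 and Marco, which neutrophils lack. For S100a8 and S100a9 they lie between the other cells of the gate and neutrophils.

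Across the 16 pairs of class and library with at least 20 cells, the genes whose level was most like the mean of the 8 (Pearson r of log2(CPM + 10) of 0.98 for each) were Capns2, Mgam, Gm5416, Sgms2 and Steap4. Steap4, a metalloreductase, was at 341, 194, 211 and 186 CPM in neutrophils and Mgam, maltase-glucoamylase, at 10.1, 5.84, 5.92 and 7.58 CPM. Those most like Mmp9 were Ppp1r3b, Il1rap, Cd177, Cpeb2 and Ccdc80 (r = 0.98 for each), of which Cd177, a surface protein of neutrophils, was at 66.3, 92.2, 59.2 and 109 CPM. The 5 nearest to Camp, Gm19345, Gm45472, Gm26581, Slc24a3 and Gm32515, were all at or below 5.62 CPM. The pairs share 4 libraries, and 4 of the 16 are neutrophils, so the correlations are a description.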

How the data were processed

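Per the labels, CD45+ cells were captured with the 10x Genomics 3' chemistry, and the authors aligned reads to GRCm38/mm10 and counted UMIs with Cell Ranger 3.0.2. Cells under 200 genes or over 10% mitochondrial UMIs had been dropped by the authors. The deposited values are raw counts of UMIs per gene and cell. Reads of near-identical genes may have been dropped. Whether doublets had been removed is not given in the sources used here.

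Each cell was assigned to the class with the highest mean log(1 + UMIs per 10000) over fixed markers, at least 3 of them detected; 98 cells stayed without a class. T, NK and innate lymphoid cells were pooled, as were B and plasma cells. UMIs of a gene were summed over the cells of a class and library and divided by all UMIs of that class to give CPM, with exact Poisson intervals. Ratios have exact conditional binomial intervals and shares exact (Clopper-Pearson) binomial intervals, all at 95%; for a share of 0, the share that 3 cells would make is given instead. With 1 library per group no test was run, and the scripts were tested on simulated data. For shares, cells were thinned to 1000 UMIs, and 7 to 28 shallower neutrophils per library were left out. Scrublet called 10 of 5811 cells (0.172%), too few to be a working call, so no doublets were removed. The members and gene lists were chosen with earlier results of these data known. Named genes were the 8, up to 6 per list with the most neutrophil UMIs, and the 5 most like the mean of the 8, Mmp9 or Camp; other genes named, called genes of a list among them, were chosen after their values had been seen. Coordinates are from GENCODE M21. Python 3.11.15, NumPy 2.4.6, SciPy 1.17.1, pandas 2.3.3, Scanpy 1.11.5, leidenalg 0.10.2 and matplotlib 3.10.9 were used.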

Additional observations from a re-analysis of the deposited data

Results flagged for a closer look

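The difference between CCR2 KO and WT neutrophils went in opposite directions at 24 h and at 72 h for 4 of the genes, with both counting intervals off 0. From 24 h to 72 h the log2 ratio of CCR2 KO to WT moved from -5.53 to 2.88 for Ngp, a difference of 8.41, from -3.30 to 0.88 for Lcn2, a difference of 4.19, from -2.85 to 0.90 for Retnlg, a difference of 3.76, and from -1.82 to 1.24 for Wfdc21, a difference of 3.06. At 72 h the higher level in CCR2 KO was not seen in every group of cells. In cells with 0 Retnlg UMIs after thinning the ratio was -0.34 for Lcn2 (-0.75 to 0.09) and 0.15 for Wfdc21 (-0.20 to 0.52), and in cells with a Siglecf UMI that of Retnlg was -0.42 (-0.66 to -0.17). The difference between the times was not tested, since each group is 1 library. The 4 ratios rest on the same 4 libraries and largely on the same cells.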

How the results depend on the processing

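No paired analysis was possible because each group held 1 library, and for that reason no replicate could be left out. The median log2 ratio of the tested genes kept its sign in all 4 comparisons under each alternative. The genes behind it were not always the same. Ngp had a ratio under 8 of 11 alternatives for CCR2 KO against WT at 72 h. For CCR2 KO over time it also had one under 8 of 11, at 2.98 to 4.17. For CCR2 KO against WT at 24 h the median was -1.95 with neutrophils from Leiden clusters (20 clusters, 6 of neutrophils), -1.92 with a stricter gate and -2.30 without Siglecf-positive cells. It was -1.90 with S100a8, S100a9 and the 8 genes out of the total, -1.70 with no minimum level and -2.25 without the 5 richest cells per gene. That last alternative left out 30 of 314, 34 of 1346, 30 of 192 and 29 of 584 neutrophils. These parts are unlike, so it does not treat the libraries alike. At 72 h it was 1.02 without Siglecf-positive cells, 0.38 with thinned cells, 0.69 with no minimum level, 0.42 as a mean over cells and 1.61 without the richest cells, and the genes called were 4, 0, 2, 1 and 4. For WT over time it was -1.84 with Leiden clusters, -1.22 without Siglecf-positive cells, -2.15 centred on all genes and -2.82 without the richest cells; for CCR2 KO over time 1.17 without Siglecf-positive cells, 0.48 thinned, 0.29 centred, 0.44 as a mean over cells and 0.42 without the richest cells, where 1 gene was called. Mmp9 changed sign over time in WT with Leiden clusters (-0.0014), without Siglecf-positive cells (-0.051) and centred (-0.30), and in CCR2 KO without Siglecf-positive cells (-0.0069) and centred (-0.12). Lcn2 over time in CCR2 KO changed sign to 0.45 without Siglecf-positive cells. Ratios between CCR2 KO and WT at 72 h whose interval held 0 also changed sign, Ltf to -0.34 without Siglecf-positive cells and to -0.33 thinned, and Mmp8 to -0.12 as a mean over cells. The share of neutrophils with Camp, Ngp or Ltf was 2.64% (WT 24 h) and 1.29% (WT 72 h) without the richest cells, 10.8%, 5.65% and 12.2% without thinning (WT 24 h and both CCR2 KO libraries), and 1.36%, 0.151%, 1.08% and 1.08% at 2 or more UMIs. The cause was not tested. Of 298 alternatives of single ratios, 220 lay within the counting interval of the reported ratio and 72 lay outside it with the same sign. The sign was the other one in 9, and in 6 of these the reported interval was off 0. Removing doublets was not run, since Scrublet called 10 cells.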

Other observations

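Of the 2 cells of CCR2 KO 72 h that had the highest score for non-immune markers, 1 held 460 Lcn2 UMIs and no other gene of the 8 beyond 1 UMI in the pair, while all 178 monocyte/Mφ cells of that library held 21 Lcn2 UMIs. These cells belong to no comparison above. In the 43 cells of that library without a class, Mmp9 was at 128 CPM (87.8 to 181) and Lcn2 at 56.1 CPM (30.7 to 94.2), the latter from 2 cells.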
